A study of Mus musculus with 6 samples.

Results

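The genes described here regulate the small GTPases Ras, Rap and Ral and the heterotrimeric G proteins. They are the 64 of 21883 protein-coding mouse genes in RefSeq GRCm38.p6 (mm10) whose symbols begin with Rapgef, Rasgrp, Rasgef, Rasa, Rassf, Ralg, Rgl or Rgs followed by a digit or lower-case letter. A peak belonged to a gene when the gene had the coding gene end nearest to the peak's midpoint, at most 100 kb away. By this rule 95 of 12105 listed peaks were assigned to 32 of the 64 genes, and 11013 peaks were assigned to any coding gene. The series consists of ATAC-seq, which marks open chromatin by insertion of the Tn5 transposase, on sorted brain microglia of C57BL/6J mice labelled 8 weeks old. The knockout group (cKO, 3 libraries) was Mir137loxP/loxP;Tmem119-CreERT2 and the control group (cWT, 3 libraries) was Mir137+/+;Tmem119-CreERT2, so both carried the tamoxifen-inducible recombinase driven by the microglial gene Tmem119, and both received tamoxifen for 7 days from 7 to 8 weeks of age. Each library came from about 50000 cells; the design text gives n = 4 for the mice without saying which animal gave which library. The question stated for the series is which transcriptional regulators are most active when miR-137 is lost.

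Small GTPases switch between a GTP-bound active and a GDP-bound inactive state. Guanine nucleotide exchange factors (GEFs) load GTP, and GTPase-activating proteins (GAPs) speed its hydrolysis; RGS proteins are the GAPs of the alpha subunits of heterotrimeric G proteins and shorten signalling by G protein-coupled receptors. In macrophages, the family to which microglia belong, Rap1 activates integrins, and chemokine and nucleotide receptors signal through G alpha i.

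The files hold 1 list of genotype-specific peaks per genotype and no values per library, so each value below is the authors' for the pooled genotype, the spread between replicates and the depth are unknown, and intervals cover counting error only. The cKO list has 8615 peaks and the cWT list 3490. A peak of either list lay at 7 of 10 microglial marker genes, beside 27.9% of all coding genes. Tmem119, P2ry12 and Gpr34 were among the 7, and Cx3cr1, Csf1r and Olfml3 had none. Peaks also lay at 4 of 5 astrocyte, 4 of 5 endothelial, 3 of 5 oligodendrocyte-lineage, 1 of 5 neuronal and 1 of 5 lymphocyte marker genes. The part of other cells in the results was not tested. A list of specific peaks does not measure the accessibility of a marker gene as such, so these counts do not check the cell label.

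The microRNA removed in the knockout has the mature strand below, from RefSeq (GRCm38.p6, chr3:118433901-118433923, plus strand), with the seed, bases 2 to 8, in capitals. It is shown because its loss is the contrast of the study.
mmu-miR-137-3p: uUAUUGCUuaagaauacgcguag

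Some of the listed peaks touched the promoter window of a member. RefSeq promoter windows, which run from 250 bases before to 50 after a start, were given for 51 of the 64 genes (70 windows), and listed peaks overlapped 4 of these windows. The share of all 32851 windows that a listed peak overlaps was not computed, so 4 of 70 cannot be called few or many. The sequences are printed on the gene's strand, 5′ to 3′, with the bases covered by the peak in capitals, since these are the places where the lists bear on a member's start. The window of Rasgrp2 is chr19:6399625-6399924 (plus strand, cKO-specific peak), that of Rgs19 is chr2:181691768-181692067 (minus strand, cKO-specific peak), that of Rassf7 is chr7:141215610-141215909 (plus strand, cKO-specific peak) and that of Rgs9 is chr11:109298132-109298431 (minus strand, cWT-specific peak).
Rasgrp2: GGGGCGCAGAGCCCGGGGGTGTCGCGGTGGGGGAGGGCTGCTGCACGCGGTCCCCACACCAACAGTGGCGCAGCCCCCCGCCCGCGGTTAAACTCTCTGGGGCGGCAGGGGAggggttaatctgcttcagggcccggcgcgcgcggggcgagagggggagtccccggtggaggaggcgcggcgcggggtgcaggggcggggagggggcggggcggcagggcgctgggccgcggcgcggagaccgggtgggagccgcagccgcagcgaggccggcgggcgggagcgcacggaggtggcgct
Rgs19: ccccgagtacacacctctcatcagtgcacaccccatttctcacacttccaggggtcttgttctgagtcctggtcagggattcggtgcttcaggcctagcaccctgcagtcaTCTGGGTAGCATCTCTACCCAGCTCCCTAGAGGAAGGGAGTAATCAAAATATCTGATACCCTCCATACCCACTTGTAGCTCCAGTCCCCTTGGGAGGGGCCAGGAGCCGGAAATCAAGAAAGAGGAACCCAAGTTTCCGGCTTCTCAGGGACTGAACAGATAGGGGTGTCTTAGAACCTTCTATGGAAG
Rassf7: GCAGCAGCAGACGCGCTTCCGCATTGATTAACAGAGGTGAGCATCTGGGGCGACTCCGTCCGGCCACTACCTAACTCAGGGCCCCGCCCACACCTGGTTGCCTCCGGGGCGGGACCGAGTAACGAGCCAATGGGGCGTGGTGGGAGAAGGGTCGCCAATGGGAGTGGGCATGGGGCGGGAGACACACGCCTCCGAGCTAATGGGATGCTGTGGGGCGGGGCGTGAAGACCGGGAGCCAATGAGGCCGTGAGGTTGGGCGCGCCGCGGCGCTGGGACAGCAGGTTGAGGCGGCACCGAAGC
Rgs9: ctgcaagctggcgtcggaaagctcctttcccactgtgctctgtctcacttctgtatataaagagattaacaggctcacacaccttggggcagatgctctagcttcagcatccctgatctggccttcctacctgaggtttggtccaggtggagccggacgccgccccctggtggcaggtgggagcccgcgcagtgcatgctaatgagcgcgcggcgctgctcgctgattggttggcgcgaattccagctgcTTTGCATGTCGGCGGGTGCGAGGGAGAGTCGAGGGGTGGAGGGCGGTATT

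These 4 starts differed in how they met the peak. The cKO-specific peak of Rasgrp2, a calcium-responsive exchange factor for Rap1, covered 112 bp of its window, all before the start. At Rgs19, a GAP of G alpha i subunits, the peak covered 189 bp across a start internal to the gene. The cWT-specific peak of Rgs9, an RGS protein best known from the retina and the striatum, ended at the annotated start. It covered the first 226 bp of the gene, of which 50 bp lay in the window. The cKO-specific peak at Rassf7 covered all 300 bp of the window, but its midpoint lay closer to an end of the neighbouring gene Lmntd2 (421 bp), so the assignment rule did not count it for Rassf7. It was 1036 bp wide, with a deposited signal of 36.4 and p-value of 0.202.

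Short motifs were searched on both strands of these windows. GGGCGG, the core of SP and KLF sites, occurred 6 times in the Rasgrp2 window (2 in the covered part), 4 times at Rassf7 (all covered), 2 times at Rgs9 (1 covered) and 0 times at Rgs19. GGAAGT, a longer form of the GGAA core of ETS sites, had 1 match, at Rgs19 outside the covered part. The shorter GGAA was not counted. The covered part of Rgs19 does hold it, and so does that of Rassf7, on the other strand. TGANTCA, the AP-1 site, and TGTGGT, the RUNX core, had 0 matches in the 4 windows. None of these motifs contains another. Among all 32851 windows of the table, 35.7% hold GGGCGG, 23.8% GGAAGT, 7.81% TGANTCA and 16.8% TGTGGT; among the 70 member windows it is 65.7%, 25.7%, 4.29% and 10%. The member windows are richer in G and C, with a median of 64.5% against 52.7% in all windows.

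Across the group, cKO-specific peaks outnumbered cWT-specific peaks, as they do in the whole series. The counts were 73 cKO-specific and 22 cWT-specific peaks, a ratio of 3.32 (exact 95% interval 2.04 to 5.61), beside 2.54 (2.43 to 2.64) over all peaks assigned to coding genes, a value inside the members' interval. At 31 of 64 members (48.4%) there was a cKO-specific peak, where the background is 22.5% of all coding genes. There was a cWT-specific peak at 15 members (23.4%), where the background is 11.4%. A peak of either list lay at 32 members (50%, background 27.9%), peaks of both lists at 14 (21.9%, background 5.95%), and at least 5 peaks at 7 (10.9%, background 1.24%).

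The members had longer spans than coding genes in general. Their median span was 55.4 kb against 17.2 kb for all coding genes, and the median length of sequence nearest to their ends was 125 kb against 46.4 kb. Per Mb of such sequence the members had 8.86 cKO-specific and 2.67 cWT-specific peaks, against 4.65 and 1.83 over all coding genes. The part of gene size in the shares above was not tested. Members with a peak had a median span of 74.7 kb and those without one 37.6 kb, though Rgs6 and Rgs7, with the longest spans of the group (546 and 434 kb), had 0 peaks.

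**Figure D1:**
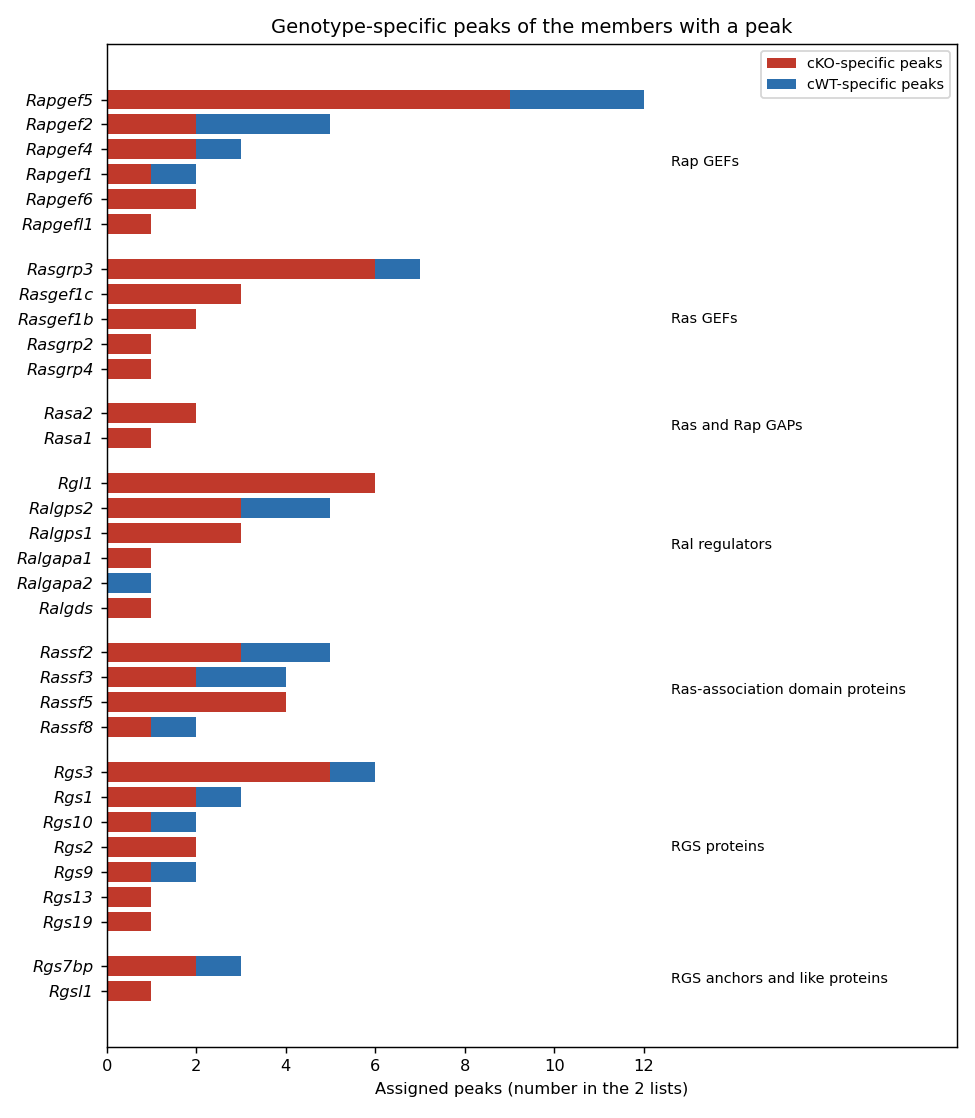
Number of assigned cKO-specific (red) and cWT-specific (blue) peaks, on the horizontal axis, for the 32 members with at least 1 peak, grouped by role. Rapgef5 leads with 12 peaks, and Ralgapa2 is the member whose bar is blue throughout.

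The Rap exchange factors held the most peaks of any role, 17 cKO-specific and 8 cWT-specific, at 6 of 7 genes. Without Rapgef5 they held 8 and 5, fewer in all than the Ral regulators or the RGS proteins. With a limit of 10 kb they held 5 peaks in all and the Ras-association domain proteins 10. Rapgef5, an exchange factor for Rap GTPases, is at chromosome 12, 117516526 to 117759737 on the plus strand, and had 9 cKO-specific and 3 cWT-specific peaks; by number of peaks it ranked at place 2 among all coding genes, ties included. The sequence nearest to its ends, 342 kb, was at percentile 98.6 of all coding genes.

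The 9 cKO-specific peaks of Rapgef5 ran from before the gene to beyond its far end. Peaks lay upstream of the first listed start at 117479337 to 117479578 (signal 20.8) and 117487356 to 117488012 (signal 12.7). The peak nearest a start, 117517345 to 117517850, had its midpoint 1071 bp downstream of the first start, the highest signal of the 9 (25.1) and the lowest p-value (0.482). Another 5 lay at 117553337 to 117553711 (signal 14.7), 117572456 to 117572854 (8.54), 117586168 to 117586424 (18.9), 117590800 to 117591237 (15.1) and 117728482 to 117728874 (9.53), all inside the gene. Most of these lay in the part of the gene nearer its first start. The last, 117764911 to 117765121 (signal 20.2), lay 5279 bp beyond the 3′ end. The cWT-specific peaks, 117427493 to 117427682 (signal 10.9), 117465964 to 117466276 (8.78) and 117700002 to 117700235 (9.69), had p-values from 0.959 to 0.972 and lay 50406 bp or more from an end of the gene. Peak names carry a number that follows chromosome order, read here as the place among all peaks called in that genotype. Over the stretch of the 9 cKO-specific peaks it counts 17 cKO peaks, of which 10 are in the cKO-specific list. Over the whole cKO numbering 25.8% are listed. The stretch was cut to begin and end at listed peaks, which raises its share, so it cannot be compared with 25.8%. The same holds for the numbered stretches given below for other members. A further 2 cKO-specific peaks fell just outside the 100 kb limit: 117410546 to 117410972, at 105767 bp, and 117639432 to 117639966, inside Rapgef5 but 120038 bp from its ends.

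Rapgef2, a Rap exchange factor with a PDZ domain, was the Rap GEF with more cWT-specific than cKO-specific peaks, 3 against 2. With all annotated genes allowed as the nearest gene, and likewise with a limit of 10 kb, it had 1 cKO-specific and 0 cWT-specific peaks. Its cWT-specific peaks were 79161937 to 79162336 on chromosome 3 (signal 32.2, the highest of the 22 cWT-specific member peaks), inside the gene, and 79018653 to 79018984 (10.6) and 78966980 to 78967251 (9.50) beyond its 3′ end. The cKO-specific peaks, 79069962 to 79070143 (8.86) and 79239067 to 79239452 (13.3), lay inside it. The cWT-specific peak inside the gene was 16261 bp upstream of the nearer of the listed starts, which lie within the span, and at 99625 bp from the nearest end of the span it was close to the 100 kb limit.

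The other Rap GEFs had 1 to 3 peaks each. Rapgef4, which encodes the cyclic AMP-activated factor Epac2, had 2 cKO-specific peaks inside the gene and 1 cWT-specific peak 3410 bp beyond it. Rapgef1, an exchange factor recruited through Crk adaptors, had a cKO-specific peak 26919 bp upstream of its start (29592602 to 29593001 on chromosome 2, signal 27.7, p-value 0.422) and a cWT-specific peak 30361 bp downstream of it (29649792 to 29650371, signal 30.6, p-value 0.763). Rapgef6 had 2 cKO-specific peaks and the related gene Rapgefl1 had 1. Rapgef3, which encodes Epac1, had none in either list.

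**Figure D2:**
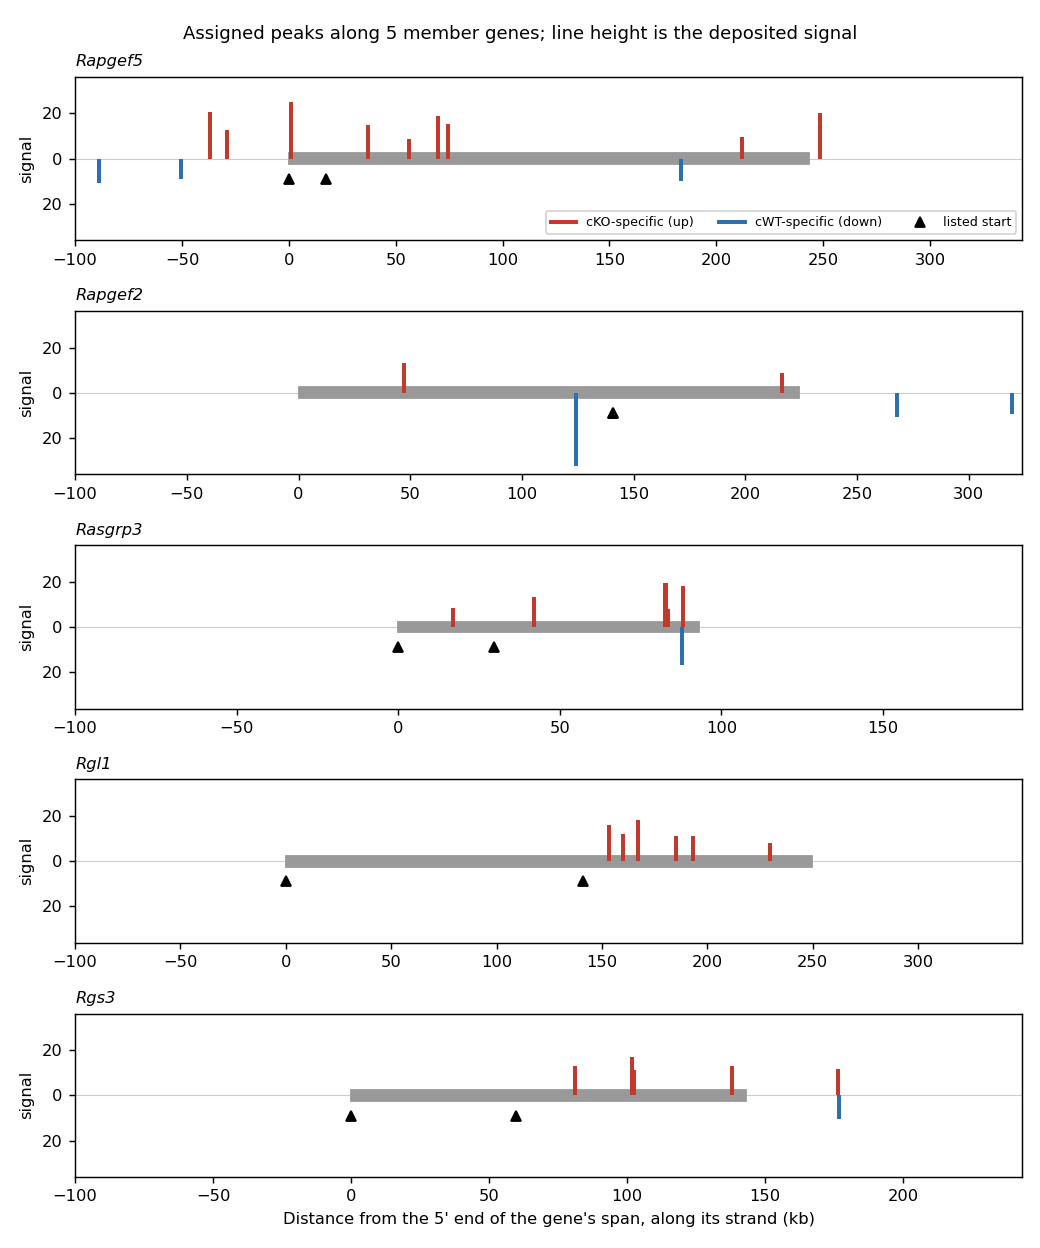
Assigned peaks of Rapgef5, Rapgef2, Rasgrp3, Rgl1 and Rgs3, with distance in kb from the 5′ end of the gene's span on the horizontal axis and the deposited signal as line height, cKO-specific peaks upwards in red and cWT-specific peaks downwards in blue; grey boxes are gene spans and triangles listed starts. The 9 red lines of Rapgef5 spread over 286 kb, while the 6 of Rgl1 lie in the part of the gene after its internal start.

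The Ras exchange factors had 13 cKO-specific peaks and 1 cWT-specific peak, at 5 of 7 genes. Rasgrp3, a diacylglycerol-activated exchange factor for Ras and Rap1, is at chromosome 17, 75435870 to 75529054 on the plus strand and held 6 of the 13 and the single cWT-specific peak. All 7 lay inside the gene. Of the cKO-specific peaks, 75452769 to 75453015 (signal 8.58) and 75477621 to 75478003 (13.1) stood alone. The other 4, from 75518230 to 75524090, followed each other in the cKO numbering within 5.86 kb near the 3′ end.

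In that block at the end of Rasgrp3 the lists met. A pair of its cKO-specific peaks, 75518230 to 75518576 and 75518577 to 75518810, adjoined with the same signal (19.5) and may be parts of 1 region. The last cKO-specific peak, 75523886 to 75524090 (signal 17.9, p-value 0.664), overlapped the cWT-specific peak 75523633 to 75523915 (signal 17.0, p-value 0.787) by 30 bp.

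Rasgef1c and Rasgef1b, which encode RasGEF-domain proteins, the latter a gene that macrophages induce on Toll-like receptor stimulation, had 3 and 2 cKO-specific peaks and 0 cWT-specific peaks. Those of Rasgef1c lay 2359 bp inside the gene's 5′ end and 14441 and 17183 bp beyond its 3′ end. Those of Rasgef1b lay 74322 and 92614 bp upstream of its start, with signals of 18.5 and 16.9. Rasgrp2 had 1 cKO-specific peak, at 6399394 to 6399736 on chromosome 19 (signal 7.89, p-value 0.932), 310 bp upstream of a listed start. Rasgrp4, an exchange factor of mast cells and other myeloid cells, had 1 at 29134638 to 29134983 on chromosome 7 (signal 19.5, p-value 0.788), 203 bp from an end of the gene. Rasgrp1 and Rasgef1a had none.

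Ras GAPs had 3 cKO-specific and 0 cWT-specific peaks, at 2 of 7 genes. Rasa2 held the cKO-specific member peak with the lowest p-value of the 73, at chromosome 9, 96544064 to 96544583 (signal 32.0, p-value 0.281), inside the gene near its 3′ end. Its other peak, 96637213 to 96637469 (signal 10.1, p-value 0.945), lay 5838 bp upstream of the start. Rasa1, which encodes p120 RasGAP, had a cKO-specific peak 69845 bp upstream (signal 20.8). Rasa3, Rasa4, Rasal1, Rasal2 and Rasal3 had none.

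The regulators of Ral had 14 cKO-specific and 3 cWT-specific peaks, at 6 of 9 genes. Rgl1, an exchange factor that links active Ras to Ral, spans chromosome 1, 152516762 to 152766308 on the minus strand and had 6 cKO-specific and 0 cWT-specific peaks. They lay between 152536588 and 152613047, where the numbering of cKO peaks runs over 7 peaks, and 5 of them were consecutive over 39.9 kb. Their signals were 8.01, 11.1, 11.2, 18.3, 11.8 and 15.8 in order of position, and their p-values ran from 0.639 to 0.970. Each lay downstream of the internal start of Rgl1, the nearest by 12369 bp. With noncoding genes also allowed as the nearest gene, 0 of these 6 peaks were assigned to Rgl1.

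Ralgps1 and Ralgps2 encode Ral exchange factors with a PH domain. Ralgps1 had 3 cKO-specific peaks inside the gene and 0 cWT-specific peaks, and a further 3 cKO-specific peaks and 1 cWT-specific peak inside it were assigned to Angptl2, which lies within its span. Ralgps2 had peaks of both lists. Its cKO-specific peak 156938606 to 156939097 on chromosome 1 (signal 18.3, p-value 0.615) lay 536 bp downstream of a listed start, and the cWT-specific peak 156921666 to 156922087 (signal 21.1, p-value 0.528) lay 17511 bp downstream. The others were cKO-specific at 156930396 to 156930802 (signal 8.92) and 157017521 to 157017795 and cWT-specific at 156803188 to 156803531 (12.7), the last being 807 bp beyond the 3′ end. Ralgapa2, which encodes a catalytic subunit of the Ral GAP complex, was the only member with a cWT-specific peak (146322821 to 146323185 on chromosome 2, signal 8.96, p-value 0.935) and no cKO-specific one. It had no peak left with all annotated genes, where Ralgps2 alone had a cWT-specific peak and no cKO-specific one, nor with a limit of 10 kb, where this held for Rapgef4, Rgs9 and Rgs10. At scores at or above the list median it had none either, and 5 other members had cWT-specific peaks alone. Its homologue Ralgapa1 and the exchange factor gene Ralgds had 1 cKO-specific peak each, and Ralgapb, Rgl2 and Rgl3 had none.

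Ras-association domain proteins (RASSF) had 10 cKO-specific and 5 cWT-specific peaks, at 4 of 10 genes. Rassf5 encodes RAPL, an effector of Rap1 in integrin activation and leukocyte adhesion, and had 4 cKO-specific and 0 cWT-specific peaks. Nothing but these 4 was numbered in the cKO list over that stretch of 8.07 kb on chromosome 1. The pair 131173874 to 131174168 (signal 11.1) and 131174386 to 131174761 (14.1) lay inside the neighbouring gene Eif2d, beyond the 3′ end of Rassf5. The pair 131181253 to 131181474 and 131181698 to 131181938, both with a signal of 26.4 and with p-values of 0.882 and 0.426, lay where Eif2d and Rassf5 overlap. A peak there cannot be ascribed to 1 of the 2 genes by position.

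Rassf2 and Rassf3 carried peaks of both lists in nearly equal number. Around the 5′ end of Rassf2, whose product binds K-Ras and the kinases Mst1 and Mst2, the 5 peaks lay within 20 kb: cKO-specific ones at 132020946 to 132021321 (signal 11.1) and 132027546 to 132027747 (10.8) inside the gene, then upstream a cWT-specific one at 132035117 to 132035383 (8.07), a cKO-specific one at 132035544 to 132035860 (18.4) and a cWT-specific one at 132039915 to 132040349 (17.1). The neighbouring pair of opposite lists was 160 bp apart. Rassf3 had 2 cWT-specific peaks that adjoined, 121429097 to 121429479 and 121429480 to 121429790 on chromosome 10, with the same signal of 16.1, so they may be 1 region, and 2 cKO-specific peaks, 121471570 to 121471784 inside the gene (signal 10.9) and 121505336 to 121505535 outside it (12.7). Rassf8 had 1 of each list. Rassf1, Rassf4, Rassf6, Rassf7, Rassf9 and Rassf10 had none by the assignment rule.

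At 7 of 21 RGS genes there were 13 cKO-specific and 4 cWT-specific peaks. Rgs3, a GAP of G alpha i and G alpha q, held 5 and 1 of these. On chromosome 4 its cKO-specific peaks were 62640925 to 62641287 (signal 12.9), 62661552 to 62661884 (16.8, p-value 0.434), 62662136 to 62662393 (11.2) and 62697538 to 62697960 (13.1) inside the gene and 62736048 to 62736291 (11.7) beyond its 3′ end. The cWT-specific peak 62736382 to 62736843 (10.5) began 90 bp after the last of these, so the lists again lay side by side.

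The genes Rgs2, Rgs13, Rgs1, Rgs21 and Rgs18 stand in a row on chromosome 1, from 143999338 to 144775427. Rgs1 limits chemokine receptor signalling in leukocytes, and Rgs2 acts mainly on G alpha q. Within the row and 100 kb to either side lay 5 cKO-specific peaks and 1 cWT-specific peak, all 6 assigned to its genes. Rgs2 had cKO-specific peaks at 143985045 to 143985469 (signal 14.3) and, 821 bp upstream of its start, at 144004866 to 144005074 (signal 5.28, the lowest of the 73 cKO-specific member peaks). Rgs13 had 1 inside the gene (signal 9.85). The 3 peaks of Rgs1 lay 50262 to 70940 bp away in the gap before Rgs21: cKO-specific ones at 144299232 to 144299501 (11.0) and 144314298 to 144314709 (12.5), and a cWT-specific one at 144319888 to 144320200 (24.3, p-value 0.514, the lowest of the 22 cWT-specific member peaks). Rgs21 and Rgs18, at the far end of the row, had none.

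**Figure D3:**
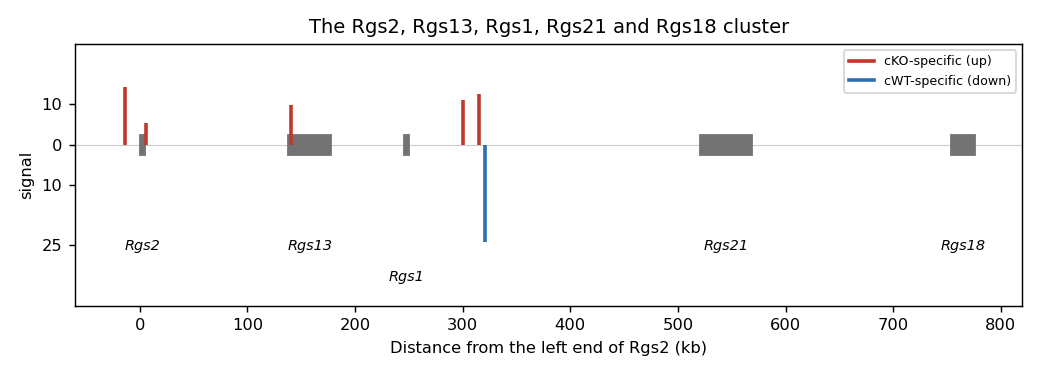
The row of 5 RGS genes on chromosome 1, with distance in kb from the left end of Rgs2 on the horizontal axis and the deposited signal as line height, cKO-specific peaks upwards in red and the cWT-specific peak downwards in blue. The 6 peaks lie at Rgs2 and Rgs13 and between Rgs1 and Rgs21.

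Rgs10, an RGS gene with high expression in microglia, had 1 peak of each list, both beyond its 3′ end on chromosome 7: the cKO-specific one at 128359245 to 128359640 (signal 17.4) and the cWT-specific one at 128369542 to 128370116 (8.13). On chromosome 11 Rgs9 had a cKO-specific peak inside the gene, 109269676 to 109269906 (signal 10.7), besides the cWT-specific peak at its start, 109297956 to 109298181 (10.1, p-value 0.883). Rgs7bp, which encodes a membrane anchor of RGS proteins of the R7 group, had 2 cKO-specific peaks and 1 cWT-specific peak; near its 5′ end the cWT-specific peak 105047099 to 105047488 (10.4) and the cKO-specific peak 105048772 to 105049036 (14.9) were 1283 bp apart. Rgs19 and Rgsl1 had 1 cKO-specific peak each. The RGS genes without a peak were Rgs4, Rgs5, Rgs6, Rgs7, Rgs8, Rgs11, Rgs12, Rgs14, Rgs16, Rgs17, Rgs18, Rgs20, Rgs21 and Rgs22, and the anchor gene Rgs9bp also had none.

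The balance of the lists at single genes was tested for every coding gene with at least 5 peaks against the 71.7% of assigned peaks that are cKO-specific. Each peak counted as a separate draw, though some adjoining peaks may be 1 region, and the spread between libraries did not enter. By the exact binomial test (two-sided, Benjamini-Hochberg over 271 genes) 0 genes passed (0%). Without adjustment 6 were under 0.05 (2.21%), and the 7 members tested were not among these. The lowest member p was that of Rapgef2, with 2 of 5 peaks cKO-specific (40.0%, exact 95% interval 5.27 to 85.3; exact p = 0.141, adjusted p = 1.0). Next was Rgl1, with 6 of 6 (100%, 54.1 to 100; exact p = 0.194, adjusted p = 1.0). Rapgef5 had 75% cKO-specific peaks (42.8 to 94.5), Rasgrp3 85.7% (42.1 to 99.6), Rgs3 83.3% (35.9 to 99.6), and Rassf2 and Ralgps2 60.0% each (14.7 to 94.7). The intervals of all 7 contain 71.7% and are wide, and no shift of the balance was detected. Even at Rgl1, where all 6 peaks were cKO-specific, the exact binomial p was 0.194. With every peak cKO-specific, none of the 7 members tested would have passed after adjustment. The test therefore could not show a cKO excess at these members, and its result there does not bear on one.

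The member peaks lay mainly away from starts and gene ends. At members with a listed start, 5 of 85 peaks had their midpoint within 1000 bp of one, and the median distance was 42352 bp. The other 10 peaks were at members without a listed start. Of the 95, 6 (6.32%, exact interval 2.35 to 13.2) had their midpoint within 1000 bp of an end of a coding gene, beside 15.8% of all assigned peaks. They belonged to Rasgrp2, Rasgrp4, Rgs2 and Ralgps2 in cKO and to Ralgps2 and Rgs9 in cWT. Gene interiors held 50 of 73 cKO-specific (68.5%) and 9 of 22 cWT-specific member peaks (40.9%), beside 51.7% and 50.1% of all assigned peaks; intergenic stretches held 19 and 11. The difference between the lists in this respect was not tested. Midpoints were a median of 18.6 kb for cKO-specific and 19.1 kb for cWT-specific member peaks from the closest end of a coding gene, beside 10.5 and 11.6 kb over all assigned peaks. The members' median span was 55.4 kb against 17.2 kb for all coding genes. The part of gene size in these shares and distances was not tested.

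The authors name each peak primary or secondary, and what sets these classes apart is not stated in the files or labels. All 95 member peaks were named secondary, and 0 of the 291 listed primary peaks were among them. The primary share of the 95 (0%, exact interval 0 to 3.81) stands beside 2.51% of all assigned peaks, a value inside that interval. The cKO-specific peak over the start of Rassf7, which the assignment rule gave to Lmntd2, was a primary one; when a peak inside a gene went to that gene first, Rassf7 had 1 cKO-specific peak. A p-value of at most 0.5 was deposited for 5 cKO-specific member peaks (6.85%, beside 12.4% of all assigned cKO-specific peaks), which lay at Rasa2, Rapgef1, Rassf5, Rgs3 and Rapgef5. Of the cWT-specific member peaks 0 of 22 had one (0%, exact interval 0 to 15.4), beside 6.29% of the assigned cWT-specific peaks. The adjusted p-value deposited for every cKO-specific member peak was 0.979 and for every cWT-specific one 0.981. The median signal of the member peaks was 13.3 in cKO and 11.5 in cWT, beside 16.6 and 13.7 over all assigned peaks, and their median widths were 317 and 338 bp.

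**Figure D4:**
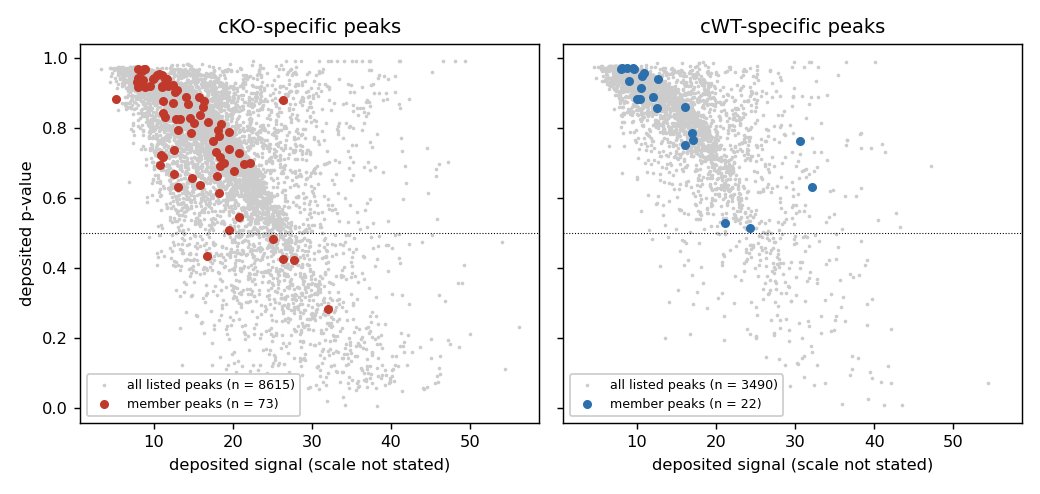
Deposited signal (horizontal axis, scale not stated) against deposited p-value (vertical axis) for all listed peaks in grey and member peaks in colour, with cKO on the left and cWT on the right; the dotted line marks a p-value of 0.5. Below the line lie 5 of the 73 cKO-specific member peaks and 0 of the 22 cWT-specific ones.

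Peaks of opposite lists lay within 1 kb of each other at 3 members, Rasgrp3, Rassf2 and Rgs3, which makes 6 of the 95 member peaks (6.32%) beside 7.11% of all assigned peaks. Peaks of the same list within 500 bp of each other made up 10 of the 95 (10.5%, beside 8.75%) and lay at Rasgrp3, Rassf3, Rassf5 and Rgs3. Chromosome 1 carries 16 of the 64 members, 7 of them with a peak, and 22 of the 95 peaks (23.2%, beside 6.91% of all listed peaks).

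The proteins that these regulators act on, and other GEFs and GAPs of the pathway, were covered by a list of 50 genes. Of these, 24 (48.0%) had a cKO-specific and 9 (18.0%) a cWT-specific peak, with 54 and 10 peaks, beside the background of 22.5% and 11.4%. Among the small GTPases 6 of 13 had a peak; Rap1b, the main Rap1 of leukocytes and platelets, had 2 of each list, and Rap1a had 1 cKO-specific peak 43 bp from an end of the gene. Hras, Nras, Rala and 4 others had none. Of 9 further GAPs 7 had a peak: the Ras GAP gene Nf1, which encodes neurofibromin, had 7 cKO-specific and 0 cWT-specific peaks, the Rap GAP genes Sipa1l2 and Sipa1l1 had 7 and 1 and 3 and 0, and the Ras GAP gene Dab2ip had 3 and 0. Of 13 G alpha genes 6 had a peak, led by Gnaq with 6 cKO-specific and 1 cWT-specific, Gna12 with 4 and 0 and Gnas with 3 and 1. The effector genes Apbb1ip and Rin1 had 1 cKO-specific peak each. The exchange factor gene Sos2 had 1 cWT-specific peak, 314 bp from an end of the gene.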

How the data were processed

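Nothing was aligned or called here. The submitters' processing notes name the builds GRCm38 and mm10 and the tools HOMER 4.11, MACS2 2.2.7.1 and Bowtie2 2.4.4; their roles, how replicates were combined, any Tn5 shift and how peaks were called specific: not given in the sources used here. The authors deposited 1 headerless peak list per genotype with a score, a signal of unstated scale and a p-value, plain and adjusted; the score deposited equals -125 times log2 of the p-value, rounded down, in all 12105 peaks. What the p-value tests is not stated. Groups follow the sample titles.

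Peak midpoints were assigned to the nearest end of 21883 nuclear protein-coding genes of RefSeq GRCm38.p6, up to 100 kb; starts and strand came from RefSeq promoter windows. Ratios and shares carry exact (Clopper-Pearson) 95% intervals. Single genes were tested by a two-sided exact binomial test with Benjamini-Hochberg adjustment over all genes with at least 5 peaks. On simulated lists, recovery was required only for genes set to a low cKO share, not for a cKO excess. Members with at least 4 peaks, or with a peak within 1000 bp of an end, are described peak by peak. For the pathway list, genes with at least 3 peaks were to be named; the others named there, and Rassf7, Lmntd2, Angptl2 and Eif2d, were picked with their values in view. The members and lists were chosen with earlier results of these data known. Python 3.11.15, numpy 2.4.6, pandas 2.3.3, scipy 1.17.1 and matplotlib 3.10.9 were used.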

Additional observations from a re-analysis of the deposited data

How the results depend on the processing

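The ratio of cKO-specific to cWT-specific member peaks was above 1 and inside its main interval wherever it could be computed, from 2.83 (score at or above the list median, 34 against 12 peaks) to 5.38 (nearest end among all annotated genes, 43 against 8). At p-values up to 0.5 it could not be computed, with 5 and 0 peaks. Members with a cKO-specific peak fell from 31 to 5 at p-values up to 0.5, to 20 at scores at or above the median and to 18 with a limit of 10 kb. Members with a cWT-specific peak fell from 15 to 0, and to 7 both with the 10 kb limit and with all annotated genes. The share of all coding genes with a peak was not computed under these settings. The falls therefore cannot be read as a result about the members. With all annotated genes 7 members had 0 peaks left (Ralgapa2, Rasgef1b, Rassf8, Rgl1, Rgs1, Rgs10 and Rgsl1), and Rapgef5 6 cKO-specific and 0 cWT-specific ones. The share at gene ends was 6.32% at 1000 bp, 13.7% at 3000 bp, 1.05% where the peak had to overlap the end, and 0% among the 5 peaks with p-values up to 0.5; over all listed peaks it was 14.3%, 24.1%, 5.42% and 28.2%. Merging peaks within 500 bp, taking the containing gene first or leaving out Rapgef5 moved neither the ratio nor the numbers of members with a peak by over 1.5 times. At single members, merging took Rassf5 from 4 to 2 cKO-specific and Rassf3 from 2 to 1 cWT-specific peaks, and the containing gene first took Ralgps1 from 3 to 5 cKO-specific and from 0 to 1 cWT-specific peaks and Rassf7 from 0 to 1 cKO-specific peak. By the balance test 0 members passed under 4 alternatives to it, with the same limit on showing a cKO excess. No paired analysis was possible because each list is pooled over its libraries; for the same reason no replicate could be left out. Depth per library is unknown, so a longer list in 1 genotype and more open chromatin there cannot be told apart.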

Other observations

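Of the listed peaks with a midpoint inside a member, 9 were not counted for it, because another gene's end was nearer or every end was beyond 100 kb. Ralgps1 held 4 of them, all nearest an end of Angptl2, which encodes a secreted angiopoietin-like protein, and Ralgps2 held 2, 1 of each list, nearest an end of Angptl1. The cWT-specific one in Ralgps2, 156861524 to 156861951 on chromosome 1 with a signal of 9.28, lay 659 bp from an end of Angptl1. Rassf5 held 1 (cKO-specific, 131188605 to 131189261 on chromosome 1, signal 18.9), nearest an end of Eif2d at 1274 bp. With a peak given first to the gene that contains it, the members had 76 cKO-specific and 24 cWT-specific peaks.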
